A study of Mus musculus with 7 samples.

Results

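The genes described here carry the insulin signal from its receptor to AKT and GSK3 and run the uptake, breakdown, synthesis and storage of glucose in hepatocytes. They were chosen by name as 43 gene symbols, of which 41 had a probe set with a single symbol among the 19938 genes tested. No probe set was paired with *Gpi1* or *Pfkfb1*. They fall into 4 role groups: 19 measured genes from the receptor to AKT and GSK3, 10 of glucose entry and glycolysis, 6 of gluconeogenesis and 6 of glycogen. Primary hepatocytes from male C57BL/6J mice were transfected with 1 µg of a miR-709 mimic (4 replicates, A to D) or with the same amount of Cel-239b, a worm miRNA that served as control (3 replicates, B to D). Cells of both treatments had been separated from non-parenchymal cells on a Percoll gradient and plated in medium that contained serum, insulin and dexamethasone. Total RNA was taken at 24 h and hybridized to Affymetrix Mouse Gene 1.0 ST arrays, 1 per replicate. It is not stated whether the replicates came from separate mice or isolations, so the p-values measure the spread between these arrays, which may be technical.

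All 13 measured hepatocyte markers reached 6 in mean log2 signal, as did 2 of 7 cholangiocyte, 3 of 12 stellate cell, 0 of 11 sinusoidal endothelial and 1 of 11 Kupffer cell and leukocyte markers. Across probe sets, arrays of 1 treatment correlated at 0.997 to 0.998 and arrays of different treatments at 0.995 to 0.997. Replicates C and D of miR-709 stood apart in interferon response genes, whose mean log2 signal lay 1.02 and 1.00 above the Cel-239b mean, against -0.14 on A and -0.05 on B. Among the Cel-239b arrays that value was -0.18 on B, -0.07 on C and 0.25 on D. Values below are log2 signals after RMA. A log2 fold change is the miR-709 mean minus the Cel-239b mean, and its error is a standard error (SE) or a 95% interval from limma, with 4 and 3 arrays. A gene was called at an adjusted p under 0.05, and signals of different probe sets are not comparable as amounts of RNA.

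Insulin binding to its receptor leads, through the insulin receptor substrates and phosphatidylinositol 3-kinase, to activation of the kinase AKT. In liver, AKT restrains GSK3, which permits glycogen synthesis, and keeps FOXO transcription factors out of the nucleus, which lowers the expression of gluconeogenic genes. Glucose enters hepatocytes mainly through GLUT2, whereas GLUT1 and hexokinases 1 and 2 are the carrier and the first enzymes of glycolysis in most other cells and in growing or dedifferentiated cells.

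With miR-709, *Slc2a1* and *Hk2* were lower, and no other member was called in either direction by its brightest probe set. *Slc2a1* encodes the glucose carrier GLUT1 and was 1.39-fold lower, and *Hk2* encodes hexokinase 2 and was 1.52-fold lower. Thus 2 of 41 members were called lower, where 1.47% of all genes were lower and 3.28% were called in either direction. None of the 41 was called higher by limma or by the methods' t-test, where limma called 1.81% of all genes higher, although 9 members had an unadjusted p under 0.05 in that direction (9.15% of all genes). On the lower side 8 had an unadjusted p under 0.05 (5.83% of all genes). The 4 miR-709 arrays lay below the 3 Cel-239b arrays in 7 members (4.91% of all genes) and above them in 7 (7.44% of all genes). The log2 fold change was below 0 in 16 members (45.4% of all genes). Its median was 0.04 over the members and 0.01 over all genes, and the median absolute change was 0.11 over the members and 0.07 over all genes.

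**Figure D1:**
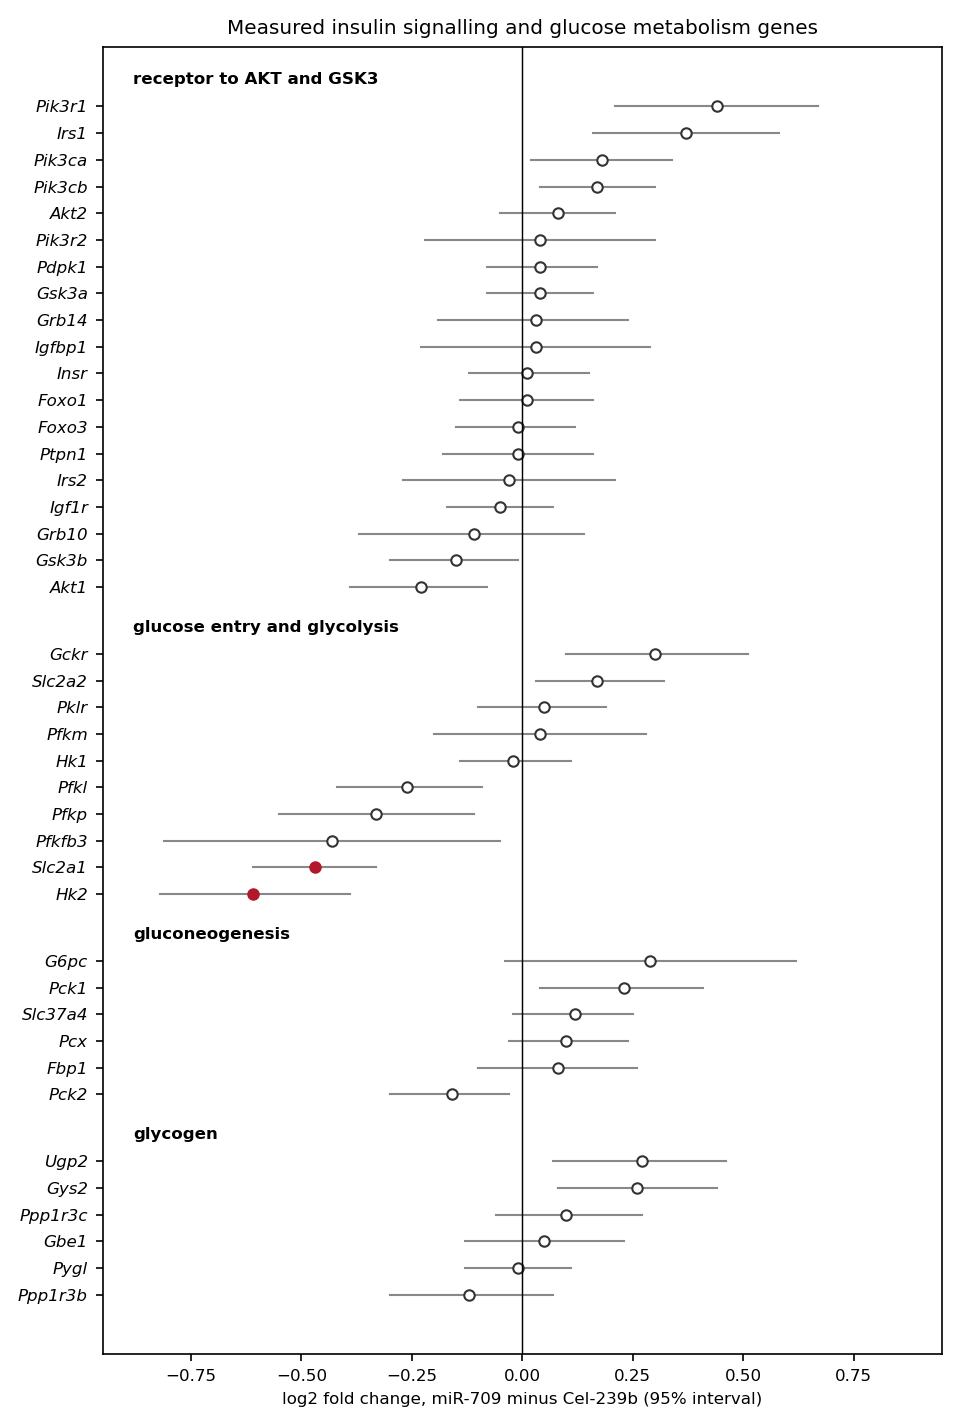
Log2 fold change of each of the 41 measured members, miR-709 minus Cel-239b (points, with 95% intervals as lines), grouped by role and sorted within a role. Filled points passed an adjusted p under 0.05, and these were *Slc2a1* at -0.47 and *Hk2* at -0.61.

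Of the 19 genes from the receptor to AKT and GSK3, limma and the methods' t-test called 0. At an unadjusted p under 0.05, 2 were lower and 4 higher (5.83% and 9.15% of all genes). The median log2 fold change of the 19 was 0.03. *Insr*, the insulin receptor, has 2 probe sets. The brighter one gave 9.76, 9.76, 9.68 and 9.81 with miR-709 (A to D), against 9.80, 9.76 and 9.66 with Cel-239b (B to D). The arrays of the treatments overlapped, with a log2 fold change of 0.01 (95% interval -0.12 to 0.15). The dimmer one gave 9.13, 9.01, 8.96 and 9.02 with miR-709 and 9.27, 9.11 and 8.98 with Cel-239b, a log2 fold change of -0.09 (SE 0.08, adjusted p = 0.66 from limma over all probe sets). Neither probe set separated the treatments, and the sign of a change this small was not settled, since it differed between the probe sets.

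*Igf1r*, the related receptor for insulin-like growth factor 1, was dim. It had 3.85, 3.94, 3.94 and 3.93 with miR-709, against 3.96, 3.98 and 3.95 with Cel-239b. All 4 miR-709 arrays were lower, and the log2 fold change was -0.05 with a 95% interval of -0.17 to 0.07 that held 0.

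Of the substrates that dock to the activated receptor, neither *Irs1* nor *Irs2* was called, and the difference between them was not tested. *Irs1* had 6.21, 5.85, 6.23 and 6.11 with miR-709 and 5.73, 5.79 and 5.68 with Cel-239b. Its miR-709 arrays all lay above the Cel-239b arrays, by a log2 fold change of 0.37 (SE 0.09, adjusted p = 0.0773 from limma). The call was missed in this fit and made without miR-709 replicate B (adjusted p = 0.0137) and when genes of mean signal below 5 were dropped (adjusted p = 0.0399). Across its alternatives adjusted p lay between 0.0137 and 0.403. A second *Irs1* probe set, which lists a single accession, was dim at 3.13 ± 0.07 (SD, n = 4) with miR-709 and 3.15 ± 0.12 (SD, n = 3) with Cel-239b. *Irs2*, the other main substrate in liver, had a log2 fold change of -0.03 (95% interval -0.27 to 0.21), with overlapping arrays.

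Phosphatidylinositol 3-kinase is a dimer of a regulatory and a catalytic subunit. *Pik3r1*, which encodes the regulatory subunit p85 alpha, had the largest positive change of the 41 members. Its signals were 9.72, 9.62, 9.36 and 9.43 with miR-709, against 9.26, 8.95 and 9.07 with Cel-239b. The arrays did not overlap, and the log2 fold change was 0.44 (SE 0.10, adjusted p = 0.0583). It passed with limma-trend (adjusted p = 0.0464) and when genes of mean signal below 5 (0.0288) or below 6 (0.0222) were dropped. Across its alternatives adjusted p lay between 0.0222 and 0.268. *Pik3cb*, a catalytic subunit, had 10.15, 10.16, 10.08 and 10.22 with miR-709, against 10.03, 9.95 and 9.98 with Cel-239b. These arrays too did not overlap, with a log2 fold change of 0.17 (SE 0.06, adjusted p = 0.203). *Pik3ca*, another catalytic subunit, had 0.18 (SE 0.07, adjusted p = 0.257), with arrays that overlapped. The regulatory subunit gene *Pik3r2* had 0.04 (95% interval -0.22 to 0.30), and *Pdpk1*, whose kinase phosphorylates AKT, had 0.04 (95% interval -0.08 to 0.17).

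*Akt1* and *Akt2* encode isoforms of the central kinase, of which AKT2 is the main one in insulin-responsive liver. *Akt1* had 9.24, 9.27, 9.03 and 9.15 with miR-709, against 9.41, 9.42 and 9.39 with Cel-239b. Every miR-709 array lay below every Cel-239b array, a 1.18-fold difference (log2 fold change -0.23, 95% interval -0.39 to -0.08) that did not pass (adjusted p = 0.126). *Akt2* has 2 probe sets that list the same accessions. One gave 9.91, 9.81, 9.86 and 9.87 with miR-709 and 9.78, 9.73 and 9.84 with Cel-239b (log2 fold change 0.08, 95% interval -0.05 to 0.21, and 0.05 without Cel-239b replicate C). The other gave 9.09, 9.11, 9.26 and 9.14 with miR-709 and 9.07, 9.00 and 9.07 with Cel-239b (log2 fold change 0.10, SE 0.06, adjusted p = 0.492). Both *Akt2* values were above 0 where that of *Akt1* was below 0, and neither gene passed the test.

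Downstream of AKT, *Gsk3b* had 8.74, 8.64, 8.65 and 8.65 with miR-709, against 8.94, 8.80 and 8.73 with Cel-239b. The highest miR-709 array lay just above the lowest Cel-239b array, and the log2 fold change was -0.15 (95% interval -0.30 to -0.01, adjusted p = 0.314). Without Cel-239b replicate B, the highest array, it was -0.09. Its paralogue *Gsk3a* had 8.47 ± 0.03 (SD, n = 4) with miR-709 and 8.44 ± 0.03 (SD, n = 3) with Cel-239b. The interval for *Gsk3a*, -0.08 to 0.16, held 0. The arrays of the FOXO genes overlapped: *Foxo1* had a log2 fold change of 0.01 (95% interval -0.14 to 0.16) and *Foxo3* of -0.01 (95% interval -0.15 to 0.12).

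Genes that restrain the receptor also overlapped between treatments. *Grb10*, an adaptor that inhibits the receptor, had a log2 fold change of -0.11 (95% interval -0.37 to 0.14), and its relative *Grb14* had 0.03 (95% interval -0.19 to 0.24). *Ptpn1*, which encodes the receptor phosphatase PTP1B, had -0.01 (95% interval -0.18 to 0.16). *Igfbp1* encodes a secreted binding protein whose transcription in liver is repressed by insulin through FOXO1. It had 11.21, 11.40, 11.17 and 10.94 with miR-709, against 11.24, 11.28 and 10.93 with Cel-239b. The spread within each treatment (SD 0.19 in both) exceeded the log2 fold change of 0.03 (95% interval -0.23 to 0.29).

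**Figure D2:**
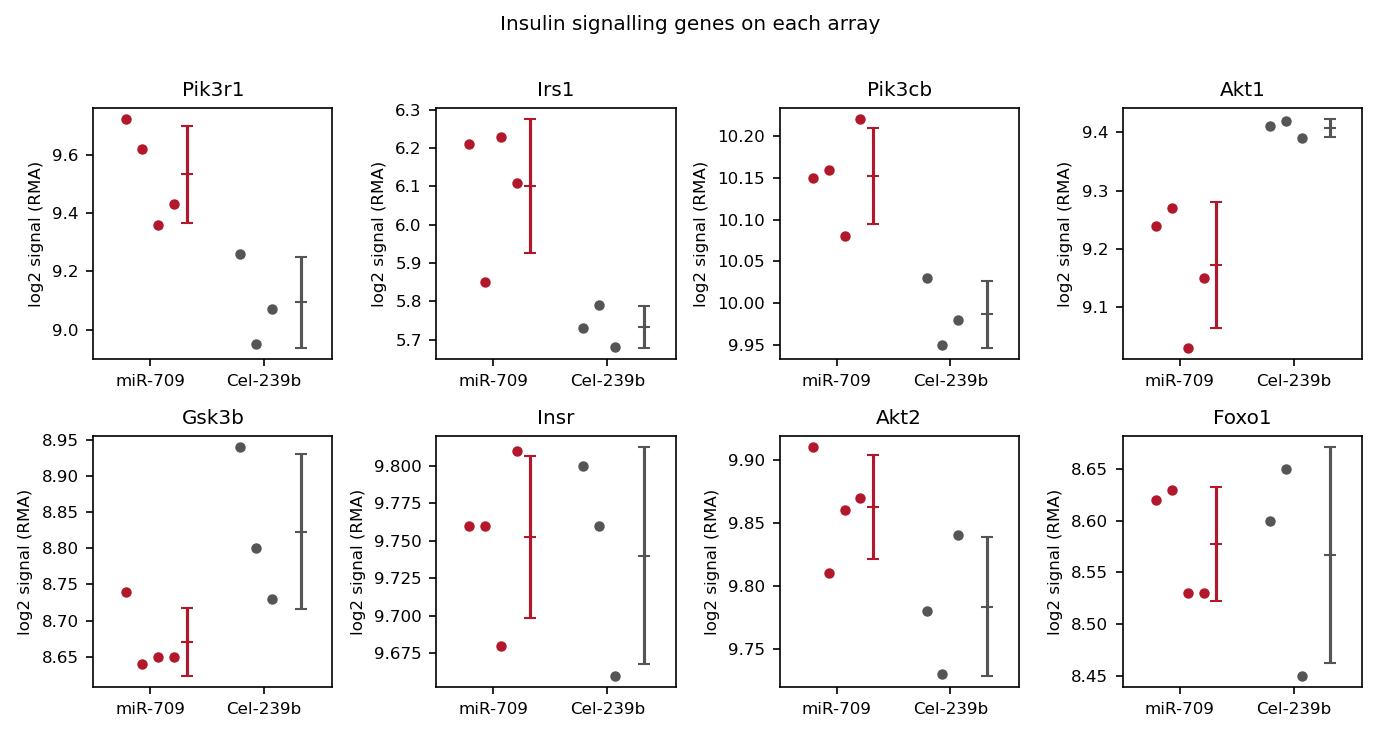
Log2 signal of 8 insulin signalling genes on each array (points) with miR-709 (red, n = 4) and Cel-239b (grey, n = 3), and the group's mean ± SD drawn to their right, on an axis cut to the range of each panel. The arrays of *Pik3r1*, *Irs1*, *Pik3cb* and *Akt1* do not overlap between treatments (12.3% of all genes), whereas those of *Gsk3b*, *Insr*, *Akt2* and *Foxo1* do. None of the 8 genes was called.

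Of the 10 genes of glucose entry and glycolysis, limma called 2 lower (1.47% of all genes) and the methods' t-test 1, *Slc2a1*, and neither test called any higher. The median log2 fold change of the group was -0.14. At an unadjusted p under 0.05, 5 members were lower and 2 higher (5.83% and 9.15% of all genes). *Slc2a1* had 10.54, 10.50, 10.63 and 10.46 with miR-709, against 10.99, 10.96 and 11.07 with Cel-239b. The gap between the treatments was larger than the range within either, and the log2 fold change was -0.47 (SE 0.06, adjusted p = 0.00352). This call held in all 21 alternatives, with adjusted p between 0.00107 and 0.0436. In bulk RNA, fewer cells of a type and less RNA per cell cannot be told apart.

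*Hk2*, the hexokinase of muscle and fat, had 7.97, 8.03, 7.73 and 7.82 with miR-709, against 8.53, 8.32 and 8.63 with Cel-239b. The arrays did not overlap, with a log2 fold change of -0.61 (SE 0.10, adjusted p = 0.00859), which is the largest change of the 41 members when each is read by its brightest probe set. The call was lost with the methods' t-test (adjusted p = 0.112), on leaving out Cel-239b replicate B (0.0535) and on leaving out both miR-709 C and D (0.122), and adjusted p ran from 0.00269 to 0.122 over all alternatives. On A and B alone the log2 fold change of *Hk2* was -0.49, and that of *Slc2a1* was -0.49 with adjusted p = 0.0436.

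The promoters of these called genes are shown because they are the members that changed, with the core letters bound by hypoxia-inducible factors, ACGTG or GCGTG on either strand, in capitals. These factors are known activators of *Slc2a1* and *Hk2*, and whether they had a part in the changes was not tested. The sequences are from RefSeq (GRCm38.p6), from 250 bases before to 50 bases after the annotated start, in the direction of the gene.
Slc2a1, chr4:119108495-119108794, plus strand: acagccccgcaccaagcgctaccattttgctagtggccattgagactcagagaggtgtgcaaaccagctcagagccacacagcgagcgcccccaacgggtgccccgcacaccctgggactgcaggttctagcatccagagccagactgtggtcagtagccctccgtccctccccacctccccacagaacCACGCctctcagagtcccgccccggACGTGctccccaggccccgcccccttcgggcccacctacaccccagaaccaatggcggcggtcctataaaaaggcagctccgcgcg
Hk2, chr6:82774405-82774704, minus strand: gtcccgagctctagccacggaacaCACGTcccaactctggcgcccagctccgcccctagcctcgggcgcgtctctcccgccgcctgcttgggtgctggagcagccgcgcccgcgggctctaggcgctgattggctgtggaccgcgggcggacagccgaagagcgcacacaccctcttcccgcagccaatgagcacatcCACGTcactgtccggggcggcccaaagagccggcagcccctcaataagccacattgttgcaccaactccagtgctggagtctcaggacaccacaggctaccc
In *Slc2a1* the cores begin at -61 and -36 from the annotated start, and in *Hk2* at -226 and -52. The motif was chosen after the changes were seen. Either core was found in 43.8% of all 32851 promoter windows of this length and in 36 of the 60 windows of members (60%), which cover 40 of the 43 genes. ACGTG alone was in 19.6% of all windows and GCGTG alone in 32.4%, and a match describes letters only.

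*Hk1*, the hexokinase of brain and most other tissues, has 2 probe sets, and they disagreed. The brighter one lists a single accession and had 12.18, 12.13, 12.19 and 12.22 with miR-709, against 12.16, 12.24 and 12.19 with Cel-239b. It showed no separation (log2 fold change -0.02, 95% interval -0.14 to 0.11). The dimmer one lists the RefSeq transcripts of *Hk1* and had 6.95, 7.01, 6.68 and 6.64 with miR-709, against 7.60, 7.53 and 7.50 with Cel-239b. By this probe set *Hk1* fell by 0.72 on the log2 scale (SE 0.10, adjusted p = 0.00438 over 21789 probe sets), with no overlap between the arrays. Its call was kept without each array in turn (adjusted p 0.00636 to 0.0327) and without both miR-709 C and D (log2 fold change -0.56, adjusted p = 0.0309), and was lost with the methods' t-test (adjusted p = 0.082). The counts above rest on the brighter probe set. With the probe set of most accessions, 3 members were lower, *Slc2a1*, *Hk1* and *Hk2*, and the median of the group was -0.29. What else the brighter probe set may take up was not tested.

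The phosphofructokinase genes, whose enzyme commits glucose to glycolysis, lay partly on the lower side. *Pfkl*, the liver isoform, had 9.82, 9.93, 9.92 and 9.68 with miR-709, against 10.10, 10.02 and 10.16 with Cel-239b. The arrays did not overlap, but the log2 fold change of -0.26 (SE 0.08) did not pass (adjusted p = 0.127, 0.0552 to 0.33 over all alternatives). *Pfkp*, the platelet isoform, had 9.74, 9.63, 9.72 and 9.42 with miR-709, against 10.08, 10.01 and 9.79 with Cel-239b. Its arrays did not overlap either, with -0.33 (SE 0.10, adjusted p = 0.125). *Pfkm*, the muscle isoform, had 0.04 (95% interval -0.20 to 0.28) with overlapping arrays. *Pfkfb3* encodes an enzyme that makes the phosphofructokinase activator fructose 2,6-bisphosphate. It varied most within miR-709, at 7.87, 7.52, 7.20 and 7.07, against 7.86, 7.97 and 7.70 with Cel-239b. Replicate A lay within the Cel-239b range and the log2 fold change was -0.43 (SE 0.17, adjusted p = 0.27).

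*Slc2a2*, *Gckr* and *Pklr*, which are also typical of liver, had values above 0, unlike *Pfkl*, and did not pass. *Slc2a2*, which encodes GLUT2, had 10.63, 10.80, 10.73 and 10.62 with miR-709, against 10.52, 10.51 and 10.53 with Cel-239b. All miR-709 arrays were higher, with a log2 fold change of 0.17 (SE 0.06, adjusted p = 0.217). *Gckr*, the regulatory protein that holds liver glucokinase in the nucleus, had 8.77, 8.65, 8.50 and 8.38 with miR-709, against 8.24, 8.27 and 8.30 with Cel-239b. Its arrays did not overlap (log2 fold change 0.30, SE 0.09, adjusted p = 0.128). *Pklr*, the pyruvate kinase of liver and red cells, had 0.05 (95% interval -0.10 to 0.19).

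**Figure D3:**
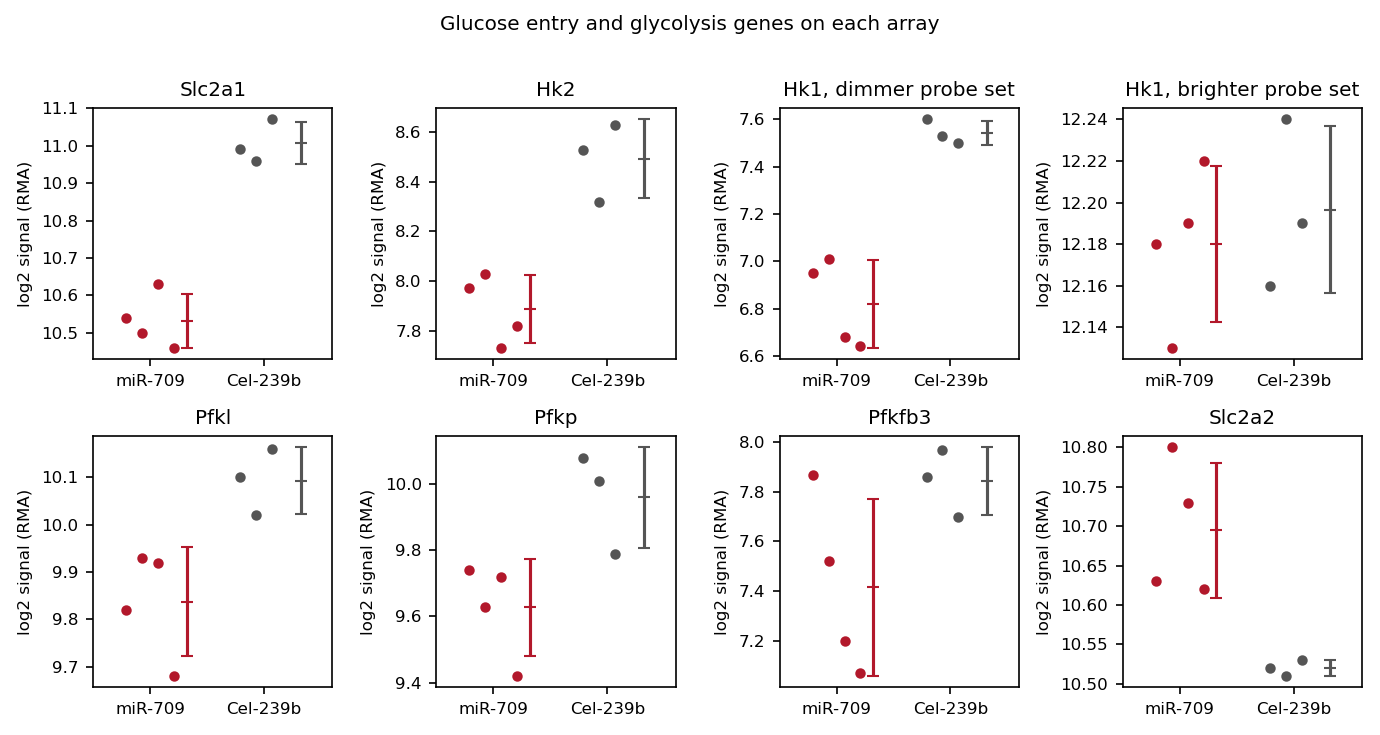
Log2 signal of glucose entry and glycolysis genes, with both probe sets of *Hk1*, on each array (points) with miR-709 (red, n = 4) and Cel-239b (grey, n = 3), and the group's mean ± SD drawn to their right, on an axis cut to the range of each panel. *Slc2a1*, *Hk2* and the dimmer *Hk1* probe set lie well below Cel-239b on every miR-709 array, whereas the brighter *Hk1* probe set overlaps.

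The mean log2 signal of the 10 genes relative to the Cel-239b mean was -0.05, -0.10, -0.19 and -0.29 on miR-709 replicates A to D, against 0.00, -0.02 and 0.02 on the Cel-239b arrays. It was lowest on the arrays with high interferon response genes. All 15 of those genes had a log2 fold change above 0, with 0 called by limma and 3 at an unadjusted p under 0.05 (9.15% of all genes higher). Some markers of other cells moved with the treatment as well, where 1.47% of all genes were called lower and 1.81% higher. Not called were 6 of 7 cholangiocyte, 10 of 12 stellate cell and myofibroblast and 11 of 13 hepatocyte markers. The median log2 fold changes of these lists were -0.08, -0.02 and 0.03, and 45.4% of all genes were below 0. Of 7 cholangiocyte markers, 5 had a log2 fold change below 0 and *Krt19* was called lower (log2 fold change -1.23), and their mean signal was 5.18 to 5.38 with miR-709 and 5.50 to 5.55 with Cel-239b. Of 12 stellate cell and myofibroblast markers, 9 were below 0 and *Acta2* (-1.34) and *Vim* (-0.40) were called lower, with means of 5.50 to 5.57 with miR-709 and 5.66 to 5.72 with Cel-239b. Of 13 hepatocyte markers, 10 were above 0 and *Cps1* (0.68) and *Tat* (0.61) were called higher, with means of 11.23 to 11.37 with miR-709 and 11.13 to 11.18 with Cel-239b. Of 11 endothelial and 11 Kupffer cell and leukocyte markers, 0 and 0 were called by limma, with 1 and 0 at an unadjusted p under 0.05. The list means include the called genes, of which the paper lists *Krt19* and *Acta2* among those that miR-709 lowered most. The part of these marker and interferon shifts in the glycolysis genes was not tested.

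**Figure D4:**
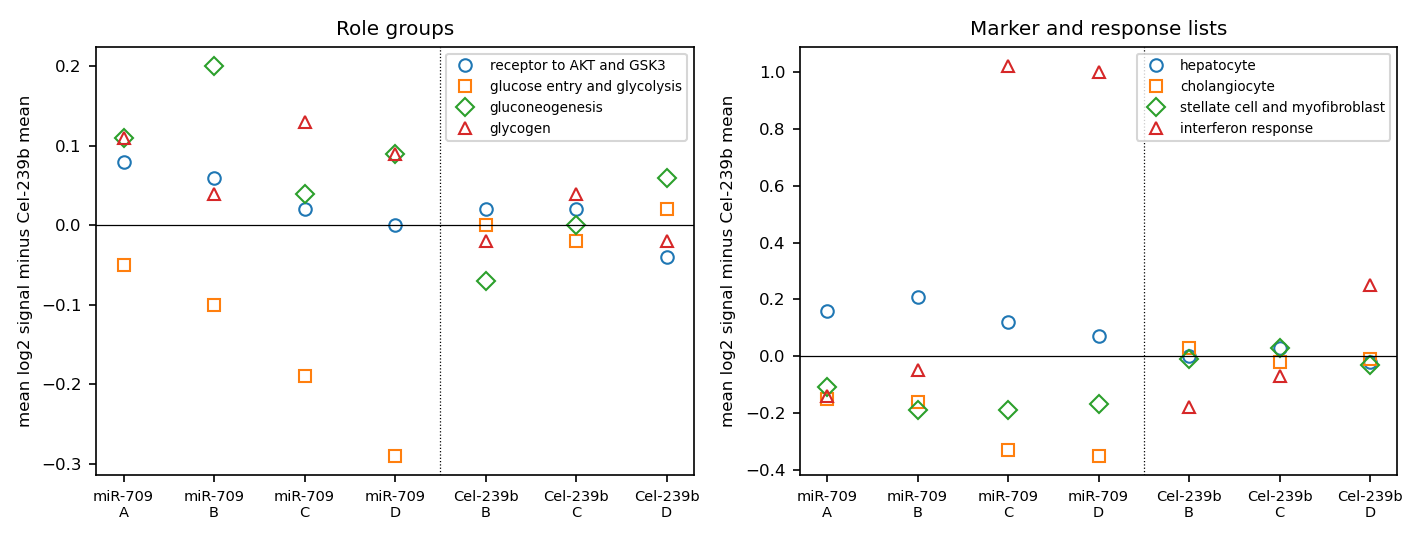
Mean log2 signal of the genes of a list on each array, minus the mean of the 3 Cel-239b arrays, for the 4 role groups (left) and for marker and response lists (right); the dotted line parts the miR-709 from the Cel-239b arrays. Glucose entry and glycolysis genes are at -0.29 on miR-709 replicate D, and interferon response genes are at 1.02 and 1.00 on C and D.

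Gluconeogenesis returns glucose to the blood and takes place mainly in liver and kidney. Of its 6 genes, limma and the methods' t-test called 0, and the median log2 fold change was 0.11. At an unadjusted p under 0.05, 1 was lower and 1 higher (5.83% and 9.15% of all genes). *Pck1*, the cytosolic phosphoenolpyruvate carboxykinase, had 6.02, 6.02, 5.84 and 6.07 with miR-709, against 5.80, 5.61 and 5.87 with Cel-239b. The arrays overlapped slightly, and the log2 fold change of 0.23 (SE 0.08) did not pass (adjusted p = 0.22) and was 0.15 without Cel-239b replicate C. *Pck2*, the mitochondrial form, had 7.62, 7.59, 7.62 and 7.62 with miR-709, against 7.68, 7.83 and 7.82 with Cel-239b. It was the only gene of this group with a value below 0 (-0.16, SE 0.06, adjusted p = 0.216), and its arrays did not overlap.

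*G6pc*, the glucose 6-phosphatase that completes glucose release, had 5.62, 6.20, 5.68 and 5.66 with miR-709, against 5.27, 5.61 and 5.62 with Cel-239b. Replicate B of miR-709 was far above the rest, and the interval of the log2 fold change of 0.29 ran from -0.04 to 0.62. It was 0.15 without that array and 0.18 without Cel-239b replicate B. *Slc37a4*, its glucose 6-phosphate transporter, had 0.12 (95% interval -0.02 to 0.25). *Pcx*, pyruvate carboxylase, had 0.10 (95% interval -0.03 to 0.24), and *Fbp1*, fructose 1,6-bisphosphatase, had 0.08 (95% interval -0.10 to 0.26). The relative mean of the group was 0.11, 0.20, 0.04 and 0.09 on A to D of miR-709, against -0.07, 0.00 and 0.06 on the Cel-239b arrays.

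*Igfbp1* and *G6pc* are classical genes that insulin represses through FOXO1, which acts at insulin response elements. Their promoters are shown with the element's core CAAAACA, searched on both strands, in capitals, because neither gene separated the treatments.
Igfbp1, chr11:7197537-7197836, plus strand: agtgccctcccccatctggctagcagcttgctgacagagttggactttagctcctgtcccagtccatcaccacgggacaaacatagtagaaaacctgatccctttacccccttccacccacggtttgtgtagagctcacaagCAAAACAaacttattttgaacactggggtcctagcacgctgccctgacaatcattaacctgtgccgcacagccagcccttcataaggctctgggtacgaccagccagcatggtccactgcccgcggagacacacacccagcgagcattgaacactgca
G6pc, chr11:101367466-101367765, plus strand: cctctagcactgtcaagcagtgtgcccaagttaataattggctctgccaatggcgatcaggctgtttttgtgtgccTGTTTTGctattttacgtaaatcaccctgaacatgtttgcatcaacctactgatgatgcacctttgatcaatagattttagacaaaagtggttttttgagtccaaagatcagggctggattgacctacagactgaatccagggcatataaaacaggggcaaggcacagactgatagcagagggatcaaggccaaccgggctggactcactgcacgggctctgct
The core begins at -108 in *Igfbp1* and, on the other strand, at -174 in *G6pc*. It was in 6.28% of all promoter windows and in 6 of the 60 windows of members (10%), and was also chosen after the values were seen.

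Glycogen is the glucose store of hepatocytes. Of its 6 genes, limma and the methods' t-test called 0, and the median log2 fold change was 0.08. At an unadjusted p under 0.05, 0 were lower and 2 higher (5.83% and 9.15% of all genes). *Gys2*, the liver glycogen synthase, had 7.80, 7.62, 7.67 and 7.67 with miR-709, against 7.27, 7.45 and 7.56 with Cel-239b. All miR-709 arrays were higher, with 0.26 (SE 0.08, adjusted p = 0.137). *Ugp2*, which makes the UDP-glucose that the synthase uses, had 9.07, 9.03, 9.17 and 9.17 with miR-709, against 8.95, 8.95 and 8.63 with Cel-239b. Its arrays did not overlap either (0.27, SE 0.09, adjusted p = 0.178), and without the low Cel-239b replicate D the log2 fold change was 0.16.

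*Ppp1r3b*, which targets protein phosphatase 1 to glycogen in liver, had 6.73, 6.63, 6.63 and 6.48 with miR-709, against 6.69, 6.89 and 6.62 with Cel-239b. These overlapped (log2 fold change -0.12, 95% interval -0.30 to 0.07), and leaving out Cel-239b replicate C gave -0.04, while leaving out miR-709 replicate D gave -0.07. Its relative *Ppp1r3c* was dim, at 4.96 ± 0.06 (SD, n = 4) with miR-709 and 4.85 ± 0.13 (SD, n = 3) with Cel-239b. *Gbe1*, the branching enzyme, had 0.05 (95% interval -0.13 to 0.23). *Pygl*, the phosphorylase that breaks glycogen down, had 9.85 on all 4 miR-709 arrays and 9.89, 9.81 and 9.88 with Cel-239b. The 95% interval of its log2 fold change ran from -0.13 to 0.11.

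Other genes of the same pathways were read from lists of 129 genes, of which 115 were measured. Of these, 3 were lower (1.47% of all genes) and 4 higher (1.81% of all genes), and 108 were not called. Among 48 further insulin signalling genes, limma called 2 lower, *Ide* and *Cbl*, of which the methods' t-test called only *Ide*. Neither test called any higher, with 5 higher at an unadjusted p under 0.05 (9.15% of all genes). *Ide*, the protease that degrades insulin, had 9.57, 9.61, 9.56 and 9.61 with miR-709, against 10.15, 10.14 and 10.09 with Cel-239b. It fell by 0.54 on the log2 scale (SE 0.05, adjusted p = 0.000612), called in all 21 alternatives. *Cbl*, a ubiquitin ligase recruited to the insulin receptor, had 7.13, 7.12, 6.86 and 7.09 with miR-709, against 7.86, 7.61 and 7.45 with Cel-239b (log2 fold change -0.59, SE 0.10, adjusted p = 0.015). Its call was lost in 5 of 21 alternatives, with adjusted p between 0.00488 and 0.172, among them without miR-709 replicate D (0.0528), Cel-239b replicate B (0.0543) or Cel-239b replicate C (0.0759).

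Among 31 further glycolysis and glucose use genes, *Pgam1* was lower and *Pdk4* was higher. *Pgam1*, the phosphoglycerate mutase of lower glycolysis, had 10.75, 10.82, 10.89 and 10.78 with miR-709, against 11.40, 11.50 and 11.45 with Cel-239b. It was 1.56-fold lower (log2 fold change -0.64, SE 0.06, adjusted p = 0.000495), called in all 21 alternatives. *Pdk4*, a kinase that shuts pyruvate dehydrogenase and spares glucose, had 6.86, 7.02, 6.77 and 6.73 with miR-709, against 6.44, 6.38 and 6.27 with Cel-239b. The difference of 0.48 (SE 0.08, adjusted p = 0.0115) was called in 17 of 21 alternatives (adjusted p 0.00381 to 0.108). It missed the threshold with the methods' t-test, without both miR-709 C and D (0.0558), without Cel-239b replicate C (0.0587) and without Cel-239b replicate D (0.0514). Over the 31 genes the median was 0.05.

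Among 18 further gluconeogenesis genes, *Gcgr* and *Gpt* were higher, and among 18 further glycogen genes *Ppp1cc* was higher. *Gcgr*, the glucagon receptor, had 8.38, 8.26, 8.35 and 8.31 with miR-709, against 7.88, 7.81 and 7.98 with Cel-239b (log2 fold change 0.43, SE 0.06, adjusted p = 0.00555). It was called in 19 of 21 alternatives (adjusted p 0.00182 to 0.0964). *Gpt*, alanine aminotransferase, had 0.32 (SE 0.06, adjusted p = 0.0308), and *Ppp1cc*, a catalytic subunit of protein phosphatase 1, had 0.34 (SE 0.07, adjusted p = 0.041). Each was called in 12 of 21 alternatives, with adjusted p from 0.0114 to 0.188 for *Gpt* and from 0.0155 to 0.234 for *Ppp1cc*. The call of *Gpt* was kept only without Cel-239b replicate D (0.0305) when arrays were left out in turn, and reached 0.112 without Cel-239b replicate C. That of *Ppp1cc* was kept only without Cel-239b replicate B (0.0244) and reached 0.157 without Cel-239b replicate C.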

How the data were processed

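The authors hybridized each of 7 RNA samples to 1 array and deposited log2 signals made by RMA in Partek, both per the labels. RMA had already put the arrays on a common distribution, and depth does not apply: the number of arrays limits precision. Of 28853 probe sets, 21789 had 1 gene symbol in GEO's platform annotation, 1621 several and 5443 none, and only the first were used. For the 999 genes with several probe sets the brightest on average was read. limma 3.58.1 in R 4.3.3 (lmFit, eBayes) compared 4 miR-709 with 3 Cel-239b arrays over 19938 genes, with Benjamini-Hochberg adjustment, and was tested on simulated data first. The methods' t-test is a t-test with equal variances, the form that the study's 1-way ANOVA takes between these treatments, here with the same Benjamini-Hochberg adjustment. The study states no such adjustment, and whether this test returns its p-values was not tested. Calls kept or lost with it are therefore not the study's own calls. The members and lists were chosen with earlier results of these data known. Named genes are the members called, those whose arrays do not overlap, the 3 with the largest change in each role group, *Akt1*, *Gsk3b*, *Pfkl*, *Insr* and *Akt2*, and the other pathway genes that were called. Alternatives changed the test, variance model, filter, scaling, probe set, replicate block and arrays. Leaving out both miR-709 C and D, and reading the probe set with the most accessions, were chosen after seeing the data. Promoter windows came from RefSeq (GRCm38.p6).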

Additional observations from a re-analysis of the deposited data

Results flagged for a closer look

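In 5 of 45 member probe sets, 1 miR-709 array lay far from the other 3 for the range of the group, a gap that chance gives in about 1 of 20 groups. *G6pc* was 6.20 on replicate B, against 5.62 to 5.68 on the others. *Gsk3b* was 8.74 on replicate A, against 8.64 to 8.65 on the others, and *Igf1r* was 3.85 on replicate A, against 3.93 to 3.94. For *Pck2* (7.59 on replicate B, 7.62 on the others) and *Foxo3* (7.63 on replicate B, 7.62 on the others) the gap was close to the rounding of the values to 2 decimals.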

How the results depend on the processing

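Of the 41 members, *Slc2a1* was called in all 21 alternatives and *Hk2* in 18. Members called lower numbered 2, and 1 with the methods' t-test, 1 without both miR-709 C and D, and 1 to 2 without each array in turn. They numbered 3 with the mean of the probe sets and 3 with the probe set of most accessions, where *Hk1* was added, and 3 with the fixed replicate block, where *Pfkfb3* was added. Members called higher numbered 0, and 1 with limma-trend, 2 when genes of mean signal below 5 were dropped, 1 when those below 6 were, and 0 to 1 without each array in turn. Other pathway genes called higher numbered 4, and 1 with the methods' t-test, 0 without both miR-709 C and D, and 1 to 3 without each array in turn. All genes called lower numbered 293, and 113 with the methods' t-test, 92 without both miR-709 C and D, and 181 to 244 without each array in turn. All genes called higher numbered 361, and 113 with the methods' t-test, 555 when genes of mean signal below 6 were dropped, 76 without both miR-709 C and D, and 180 to 294 without each array in turn. The median of the glycolysis genes was -0.29 with the mean of the probe sets and -0.29 with the probe set of most accessions, which read *Hk1* in another way. The median of the signalling genes ran from -0.03 to 0.05 without each array in turn, and that of gluconeogenesis was 0.16 without both miR-709 C and D. *Insr* turned below 0, at -0.04 with the mean of the probe sets, -0.01 with cyclic loess, -0.09 with the probe set of most accessions, and ran from -0.03 (without Cel-239b replicate D) to 0.04 without each array in turn, with -0.01 without miR-709 replicate D. Where no construction of the alternative shows it, the cause was not tested. Deviations of arrays with the same replicate letter correlated at 0.02, 0.02 and 0.05, within the -0.06 to 0.08 of arrays with different letters. These values cannot show whether arrays with the same letter shared a mouse or isolation. With the letter as a fixed replicate block, 180 genes were higher, 1 other pathway gene was higher, *Gcgr* missed the threshold (adjusted p = 0.0517, 0.00182 to 0.0964 over all alternatives) and *Pfkfb3* was called (log2 fold change -0.58, adjusted p = 0.0388, 0.0388 to 0.736 over all alternatives). Cel-239b has no replicate A, so the fixed block takes no difference from miR-709 replicate A. The log2 fold change of *Pfkfb3* was likewise -0.58 on leaving out that array (adjusted p = 0.0618 from limma). With 4 and 3 arrays the median SE was 0.08. The 95% intervals of 17 of the 41 members did not hold 0, which equals an unadjusted p under 0.05 from limma (15% of all genes). Of these members, 2 were called after adjustment. Dim probe sets such as those of *Igf1r* and *Ppp1r3c* limit what can be seen of these genes.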
